A study of Mus musculus with 4 samples.

Results

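The mitotic programme of mouse embryonic stem (ES) cells was examined after knockdown of Atad2, through 39 listed genes of the spindle checkpoint, mitotic kinases and cyclins, chromosomal passenger complex, kinetochore, spindle motors, condensin and cohesin. The rule that lists them is their function and uses no measured value, although the list was chosen with earlier results of these data known. Of the 39, 38 could be assigned a transcript row and tested among 10886 genes. Kif20a, a kinesin of cytokinesis, was not measured here because no row could be named for it. RNA was sequenced from 46C ES cells, a mouse line, in which the endogenous Atad2 gene carried a knocked-in TAP tag and which were grown on gelatin with LIF and serum. All 4 libraries came from these tagged cells, for which the study chose 1 clone. The 2 control libraries (si-ctrl) were from cells transfected with an inactive scrambled siRNA and the 2 knockdown libraries (si-Atad2) from cells transfected with an active siRNA against Atad2. The time after transfection, and which siRNA each library received, are not given in the sources used here. The study describes more than a single active siRNA and repeated sequencing of each RNA. The si-Atad2 libraries may therefore differ by siRNA, or libraries of the same group may be repeat runs of 1 RNA, and the p-values measure only the spread between these libraries, which may be technical. Levels are given in FPKM, fragments counted for each kilobase of a transcript, adjusted for library size, and the number of fragments behind them is unknown. The libraries of each number were normalized together and apart from the other pair, so the tests use ratios within a pair, and levels set side by side across pairs, overlap of the groups included, rest on separate normalizations.

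Mitosis is driven by the kinase Cdk1 bound to B-type cyclins, which are degraded once every chromosome is held by microtubules from both spindle poles. Until then, the spindle checkpoint proteins of the Bub and Mad families sense free kinetochores and hold back Cdc20, the activator of the anaphase-promoting complex. Cohesin rings hold sister chromatids together until separase cuts them, and condensin with topoisomerase II folds and disentangles the chromosomes. Transcripts of many of these genes peak in G2 and mitosis, and ES cells, which divide rapidly, express them at high levels.

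Atad2, an AAA ATPase with a bromodomain, was measured first as a check on the labels. Its level was 34.1 and 36.0 FPKM in si-ctrl 1 and 2, against 10.1 and 13.0 FPKM in si-Atad2 1 and 2. It fell by 1.53 ± 0.08 on the log2 scale (limma's moderated standard error, n = 2 pairs, adjusted p = 1.23e-06), and 29.6% and 36.2% of the control level was left in the pairs numbered 1 and 2. Of the 10886 genes tested, 265 passed an adjusted p of 0.05, 197 higher and 68 lower in si-Atad2, which is 2.43% of all genes (with the trend on GC content removed, 60 were higher and 10 lower). The 8 pluripotency markers summed to 2546 and 2496 FPKM in si-ctrl 1 and 2, and to 2432 and 2364 FPKM in si-Atad2 1 and 2. Pou5f1 was at 807 and 778 FPKM in the controls and 739 and 701 FPKM after knockdown. Sox2 went the other way, at 190 and 197 FPKM in the controls and 200 and 198 FPKM after knockdown. Nanog was at 338 and 332 FPKM in the controls, 253 FPKM in si-Atad2 1 and 313 FPKM in si-Atad2 2. Tdgf1 was at 455 and 479 FPKM in the controls and 526 and 468 FPKM after knockdown, so its pairs differed in sign. Zfp42, Esrrb, Klf4 and Utf1 were lower in both pairs. The 10 markers of differentiated lineages summed to between 13.0 and 13.9 FPKM, and the 7 fibroblast markers to between 7.79 and 9.07 FPKM, mostly Thy1, with Lum listed at 0 in every library.

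None of the 38 mitotic genes passed the test. In limma's test across all genes, 0 of 38 had an adjusted p under 0.05 and 4 of 38 (10.5%) had an unadjusted p under 0.05, against 2.43% and 16.3% of all genes. No gene of the list was called in either direction, against 1.81% of all genes called higher and 0.625% called lower. With 2.43% of all genes called, a count of 0 in a role group of a few genes sets no group apart. Their median log2 ratio of si-Atad2 over si-ctrl was -0.02, beside -0.01 for all genes, and 35 of 38 had a mean ratio between -0.15 and 0.15. The 4 genes with a low unadjusted p were Aurka, Ccnb2, Smc1a and Aurkb. The 95% interval of the mean ratio lay between -0.5 and 0.5 on the log2 scale for 37 of 38 genes and between -0.3 and 0.3 for 35 of 38. These intervals rest on 2 pairs and on a spread shared across genes. In bulk RNA, fewer mitotic cells and less of a transcript per cell cannot be told apart.

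All 38 genes were above 10 FPKM in every library. In the si-ctrl mean, the lowest was Kif4, a chromosome-binding kinesin, at 12.5 FPKM, and the highest was Top2a, topoisomerase II alpha, at 209 FPKM. The median of the 38 was 52.4 FPKM, beside 9.7 FPKM for all genes tested, and 31 of 38 lay between 30 and 90 FPKM. The group lowest in level was the centromere and outer kinetochore, where Cenpf, Cenpe, Nuf2 and Ndc80 lay between 16.0 and 21.5 FPKM. Spc25 and Spc24, the other subunits of the Ndc80 complex, were at 56.7 and 40.4 FPKM, so that transcripts of 1 complex differed more than 2-fold in level. Birc5, the survivin subunit of the passenger complex, stood second at 160 FPKM, above Incenp, Aurkb and Cdca8 at 55.1, 46.2 and 72.0 FPKM.

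**Figure D1:**
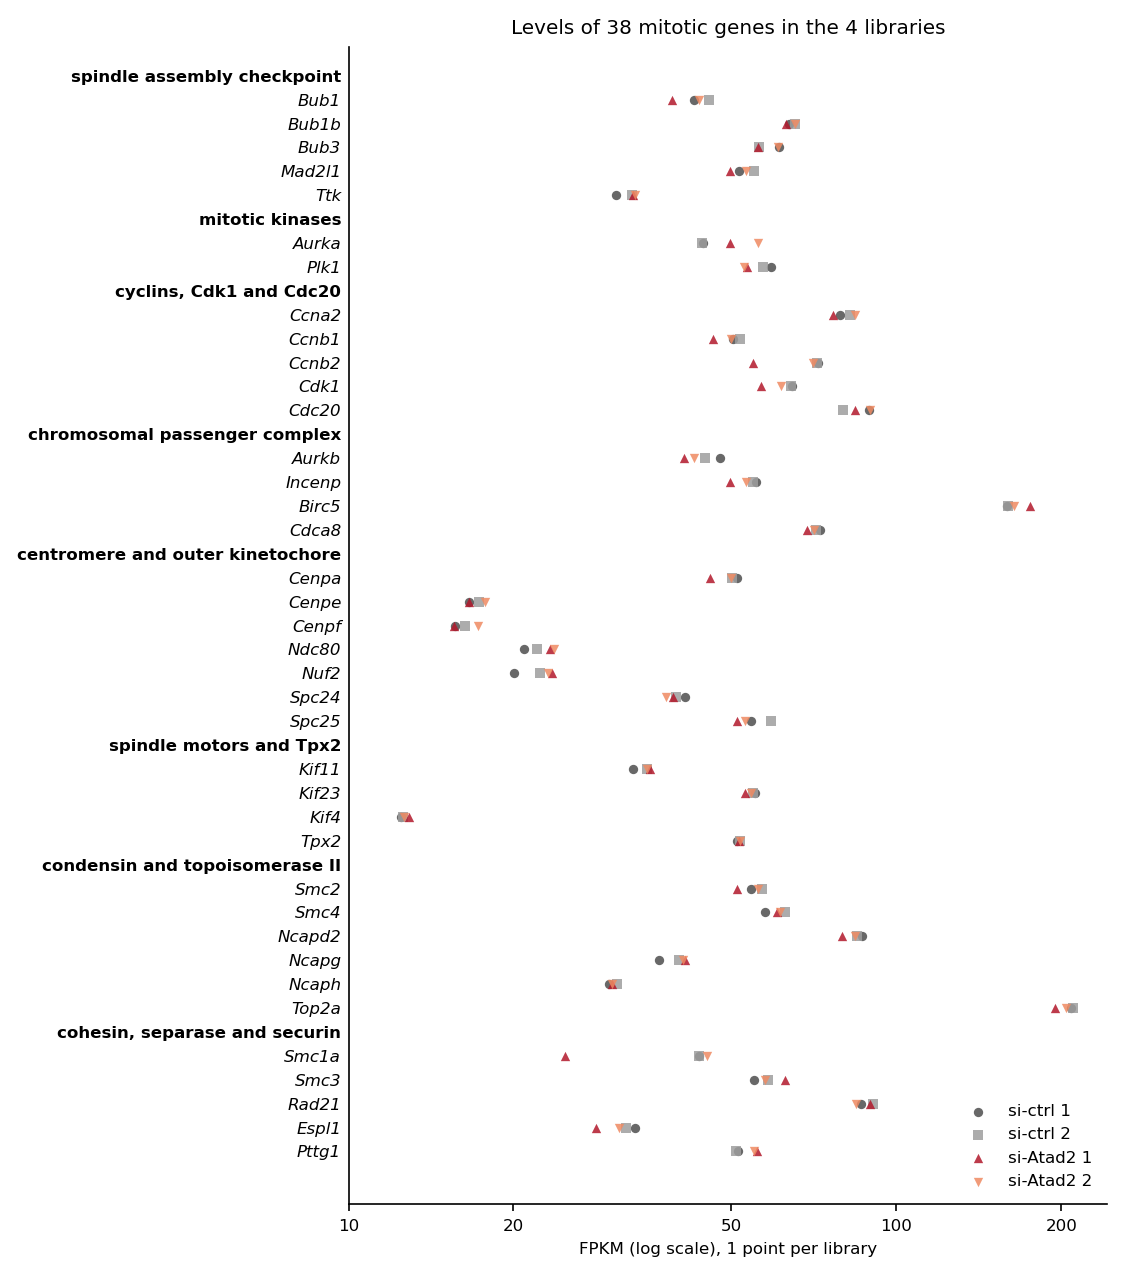
Levels of the 38 mitotic genes in FPKM on a log axis, 1 point per library (grey, si-ctrl 1 and 2; red and orange, si-Atad2 1 and 2), grouped by role. The 4 points of most genes lie close together, from Kif4 near 12.5 FPKM to Top2a near 209 FPKM, and Smc1a in si-Atad2 1 stands apart at 24.8 FPKM.

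Many mitotic genes are repressed in G1 through a promoter element called CHR, with the letters TTTGAA or TTCGAA, and activated through CCAAT boxes bound by NF-Y. Promoters of 31 of the 39 genes were found in the RefSeq table (GRCm38.p6, 250 bases before to 50 after the start, 32 promoters since Bub3 has 2). The CHR letters, searched on both strands with overlaps allowed, occurred between 100 bases before and 50 after the start in 21 of 32 promoters (65.6%), against 8.6% of all 32851 promoters in the table. A CCAAT match on either strand anywhere in the 300 bases was found in 25 of 32 (78.1%), against 37.4% of all, and at least 2 before the start in 16 of 32 (50.0%), against 10.1%. Both, with CHR near the start, were found in 20 of 32 (62.5%), against 3.4%. A match is only a description of these letters and no measure of binding. The 150 bases before the start are printed for 3 genes with many matches (Cdk1, Cdc20, Top2a) and for the 3 genes with the largest mean ratios (Ccnb2, Aurka, Smc1a), 5′ to 3′ on the gene's strand, with CHR and CCAAT matches of either strand in capitals.
Cdk1, chr10:69352913-69353062, minus strand: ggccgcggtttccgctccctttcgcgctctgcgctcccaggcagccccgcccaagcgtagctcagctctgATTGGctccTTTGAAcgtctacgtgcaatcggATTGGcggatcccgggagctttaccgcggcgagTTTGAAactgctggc
Cdc20, chr4:118437344-118437493, minus strand: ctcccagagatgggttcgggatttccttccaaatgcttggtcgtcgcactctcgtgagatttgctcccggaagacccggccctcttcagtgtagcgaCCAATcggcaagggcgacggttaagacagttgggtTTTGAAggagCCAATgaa
Top2a, chr11:99024190-99024339, minus strand: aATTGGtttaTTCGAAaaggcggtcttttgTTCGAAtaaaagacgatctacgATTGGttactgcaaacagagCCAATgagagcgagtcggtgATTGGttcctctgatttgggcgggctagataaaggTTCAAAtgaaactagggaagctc
Ccnb2, chr9:70421555-70421704, minus strand: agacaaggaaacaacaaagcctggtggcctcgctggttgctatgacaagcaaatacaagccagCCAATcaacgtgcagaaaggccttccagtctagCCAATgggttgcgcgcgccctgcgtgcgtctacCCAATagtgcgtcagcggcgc
Aurka, chr2:172370571-172370720, minus strand: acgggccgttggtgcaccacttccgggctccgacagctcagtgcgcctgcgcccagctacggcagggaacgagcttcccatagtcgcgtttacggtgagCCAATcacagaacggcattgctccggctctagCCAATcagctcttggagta
Smc1a, chrX:152016278-152016427, plus strand: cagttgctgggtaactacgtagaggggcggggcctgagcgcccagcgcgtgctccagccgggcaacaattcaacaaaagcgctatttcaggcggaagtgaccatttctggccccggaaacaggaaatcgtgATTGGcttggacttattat
The cyclin B partner Cdk1 has 2 CHR matches in this stretch, starting 71 and 15 bases before the start, each downstream of a CCAAT box read on the other strand. Cdc20 has 1 CHR match between 2 CCAAT boxes. Ccnb2 has 3 CCAAT boxes, starting 87, 54 and 21 bases before the start. Its 2 CHR matches lie outside the printed stretch, starting 167 bases before the start and at transcribed base 5. The CHR match of Aurka also lies past the start, at base 33. Smc1a, a cohesin subunit needed in every cell, has 1 CCAAT match and no CHR match. Nuf2, Ncaph, Mad2l1, Pttg1, Birc5 and Smc3 have neither in their 300 bases.

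The mitotic kinases Aurka and Plk1 had ratios of opposite sign. Aurka, the centrosome and spindle kinase (chr2:172356190-172370535, minus strand), was at 44.3 and 44.2 FPKM in si-ctrl 1 and 2, and reached 49.8 and 55.8 FPKM in si-Atad2 1 and 2. Both knockdown libraries were above both controls, as for 22.2% of all genes. Its mean log2 ratio of 0.25 ± 0.07 (n = 2 pairs; 0.16 in pair 1 and 0.33 in pair 2) was the highest of the 38 and did not pass, with an adjusted p of 0.073 by limma. It passed when values were rescaled to TPM (adjusted p = 0.029) or rows were named by greatest overlap (adjusted p = 0.043), so its call depends on the scaling and naming. The longer of its transcript rows (1905 bases) was at 9.04, 7.19, 8.66 and 7.25 FPKM in both controls and both knockdown libraries, each in order of number, while the shorter (1846 bases) was at 35.3, 37.0, 41.1 and 48.6 FPKM, so only the shorter was higher in both knockdown libraries. Plk1, the polo kinase of mitotic entry and cytokinesis, was at 59.1 and 57.1 FPKM in the controls and at 53.4 and 52.8 FPKM after knockdown. Its groups did not overlap either (26.8% of all genes were lower in this way), and its ratio was -0.13 ± 0.06 (adjusted p = 0.32).

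Among cyclins, Cdk1 and Cdc20, 0 of 5 genes passed (all genes, 2.43%), and the group's median log2 ratio was -0.08. Ccnb2, the B-type cyclin of the Golgi and cytoplasm, was at 72.1 and 71.8 FPKM in si-ctrl 1 and 2 but 54.8 FPKM in si-Atad2 1 and 70.6 FPKM in si-Atad2 2. The low value belonged to si-Atad2 1 alone, and pair 1 gave a log2 ratio of -0.39 and pair 2 of -0.02 (mean -0.21 ± 0.08, adjusted p = 0.21). Cdk1 was at 64.5 and 64.2 FPKM in the controls and at 56.7 and 61.7 FPKM after knockdown, a ratio of -0.12 ± 0.06 (adjusted p = 0.38). Its knockdown libraries were both lower, the first more than the second. Ccnb1 had a ratio of -0.08, Ccna2, the cyclin of S and G2 phase, 0.00, and Cdc20 0.04, with opposite signs in the pairs for the last 2 genes.

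The spindle assembly checkpoint genes stayed within -0.09 and 0.06 in mean log2 ratio, and 0 of 5 passed (all genes, 2.43%). Bub1, the checkpoint kinase of the kinetochore, was at 42.7 and 45.5 FPKM in the controls and 38.98 and 43.7 FPKM after knockdown (ratio -0.09 ± 0.06, adjusted p = 0.50), and its groups overlapped. Ttk, the Mps1 kinase that starts checkpoint signalling, was at 30.8 and 32.9 FPKM in the controls and 33.0 and 33.3 FPKM after knockdown (ratio 0.06 ± 0.06, adjusted p = 0.72). For Bub3, the 2 pairs had ratios of -0.13 and 0.12, and the other genes, Mad2l1 and Bub1b, had ratios of -0.05 and -0.01.

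Aurkb, Incenp and Cdca8 of the passenger complex were lower and Birc5 higher in both knockdown libraries than in both controls, across separate normalizations. Of all genes, 26.8% were lower and 22.2% higher in this way, so such separation is common. In this complex 0 of 4 passed (all genes, 2.43%). Aurkb, its kinase, was at 47.7 and 44.8 FPKM in the controls and 40.9 and 42.7 FPKM after knockdown (ratio -0.14 ± 0.07, adjusted p = 0.31). Incenp, its scaffold, was at 55.4 and 54.8 FPKM in the controls and 49.7 and 53.3 FPKM after knockdown (ratio -0.10 ± 0.06, adjusted p = 0.49). Its minor row of 3034 bases was at 5.45, 4.50 and 6.70 FPKM in both controls and si-Atad2 1 and was listed at 0 in si-Atad2 2, where the main row took the whole level. Birc5 had a ratio of 0.08 and Cdca8, borealin, of -0.04.

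At the centromere and outer kinetochore, 0 of 7 genes passed (all genes, 2.43%). The subunits of the Ndc80 complex, which binds microtubules, did not share a sign. Nuf2 was at 20.1 and 22.4 FPKM in the controls and 23.5 and 23.1 FPKM after knockdown (ratio 0.13 ± 0.07, adjusted p = 0.39). Ndc80 was at 20.9 and 22.1 FPKM in the controls and 23.3 and 23.7 FPKM after knockdown (ratio 0.12 ± 0.07, adjusted p = 0.39). Both were higher in both knockdown libraries, whereas their partners Spc25 and Spc24 were lower in both, with ratios of -0.12 and -0.07. Of all genes, 22.2% were higher and 26.8% lower in this way. Cenpa, the centromeric histone H3 variant, had a ratio of -0.08, and the large proteins Cenpe, a kinesin, and Cenpf 0.02 and 0.03.

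The spindle motors and Tpx2, which nucleates microtubules and activates Aurka, had the narrowest range, with mean ratios between -0.04 and 0.05. Here 0 of 4 passed (all genes, 2.43%). Kif11, the motor that separates the spindle poles, was at 33.0 and 35.1 FPKM in the controls and 35.5 and 35.1 FPKM after knockdown (ratio 0.05 ± 0.06, adjusted p = 0.76). Kif23, of the central spindle, was at 55.3 and 54.7 FPKM in the controls and 52.9 and 54.3 FPKM after knockdown (ratio -0.04 ± 0.06, adjusted p = 0.82). Tpx2 lay between 51.3 and 51.9 FPKM in the 4 libraries, although its 6 transcript rows varied among themselves: the row of 4177 bases was at 8.51, 9.12, 5.36 and 8.995 FPKM in both controls and both knockdown libraries, each in order of number.

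**Figure D2:**
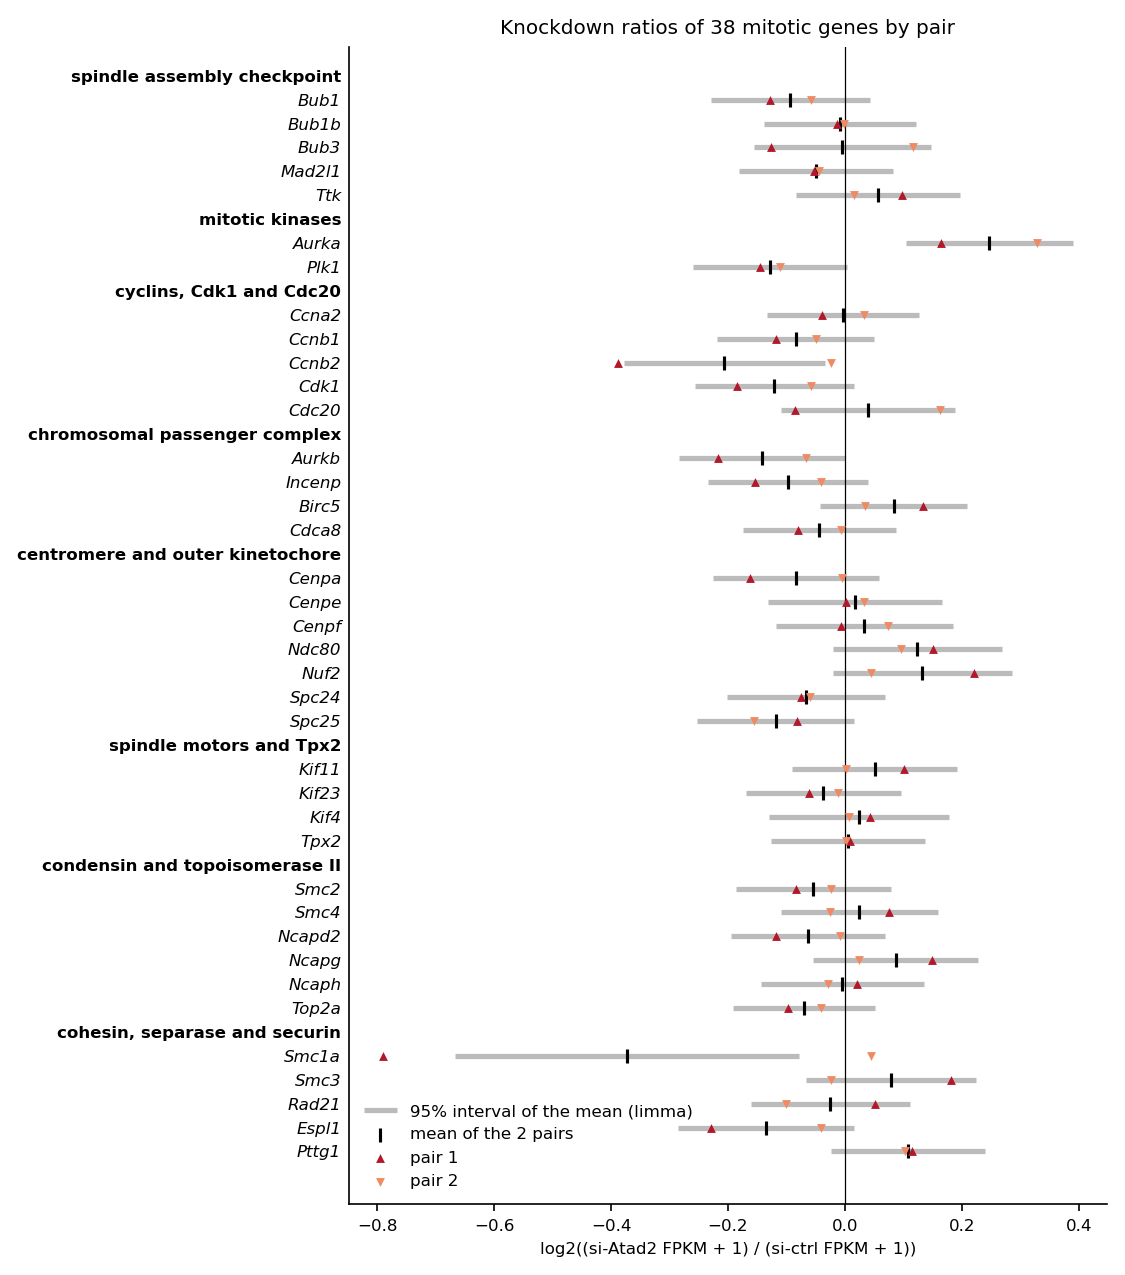
Log2 ratio of si-Atad2 over si-ctrl (FPKM + 1) for each of the 38 genes, with pair 1 (red), pair 2 (orange), their mean (black bar) and limma's 95% interval (grey). The interval leaves out 0 for Aurka, Ccnb2, Smc1a and, narrowly, Aurkb before any adjustment, and Smc1a has the pairs furthest apart, at -0.79 and 0.05.

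The condensin genes and Top2a, 0 of 6 of which passed (all genes, 2.43%), had mean ratios between -0.07 and 0.09. Ncapg, a regulatory subunit of condensin I, was at 36.9 and 40.1 FPKM in the controls and 41.1 and 40.7 FPKM after knockdown (ratio 0.09 ± 0.06, adjusted p = 0.55). Top2a was at 208 and 211 FPKM in the controls and 194 and 205 FPKM after knockdown (ratio -0.07 ± 0.06, adjusted p = 0.58). The core ATPases Smc2 and Smc4 had ratios of -0.05 and 0.02, and Ncapd2 and Ncaph of -0.06 and 0.00.

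In the group of cohesin, separase and securin, 0 of 5 passed (all genes, 2.43%), but 1 value stood apart. Smc1a (chrX:152016428-152062694, plus strand), chosen for description after its values were seen, was at 43.7 and 43.6 FPKM in si-ctrl 1 and 2, at 24.8 FPKM in si-Atad2 1 and at 45.0 FPKM in si-Atad2 2. The low level belonged to 1 knockdown library, and the other 3 lay close together. The main row of 3970 bases was at 42.3, 41.5, 24.3 and 43.7 FPKM in the same order, and the authors' 95% interval for the low value was 23.64 to 24.99 FPKM. Pair 1 gave a log2 ratio of -0.79 and pair 2 of 0.05 (mean -0.37 ± 0.14, adjusted p = 0.18), and without the libraries numbered 1 it turned from -0.37 to 0.05. Its cohesin partners Smc3 and Rad21 were at 62.5 and 89.4 FPKM in the same si-Atad2 1 library, beside 55.1 and 86.3 FPKM in si-ctrl 1, so neither was low there. Espl1, separase, was at 33.4 and 32.1 FPKM in the controls and 28.3 and 31.2 FPKM after knockdown (ratio -0.13 ± 0.07, adjusted p = 0.37). Pttg1, its inhibitor securin, was at 51.4 and 51.0 FPKM in the controls and 55.7 and 54.9 FPKM after knockdown (ratio 0.11 ± 0.06, adjusted p = 0.42).

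Read over all 38 genes, directions were close to those of other genes in the second pair and less so in the first. In 9 of 38 (23.7%) both knockdown libraries were above both controls, against 22.2% of all genes, and in 14 of 38 (36.8%) both were below, against 26.8%. The ratio was negative in both pairs for 18 of 38 (47.4%), against 34.1%, and positive in both for 11 of 38 (28.9%), against 28.5%. In pair 1 the ratio was negative for 23 of 38 (60.5%) beside 49.7% of all genes, with a median of -0.06 beside 0.00. In pair 2 it was negative for 22 of 38 (57.9%) beside 55.8%, with a median of -0.01 beside -0.02. The library si-Atad2 1 held the lowest of the 4 values for 20 of 38 genes (52.6%), against 27.4% of all genes. Rescaled to TPM, which shifts all genes of a library alike, 11 of 38 (28.9%) were negative in both pairs, against 24.0% of all genes.

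**Figure D3:**
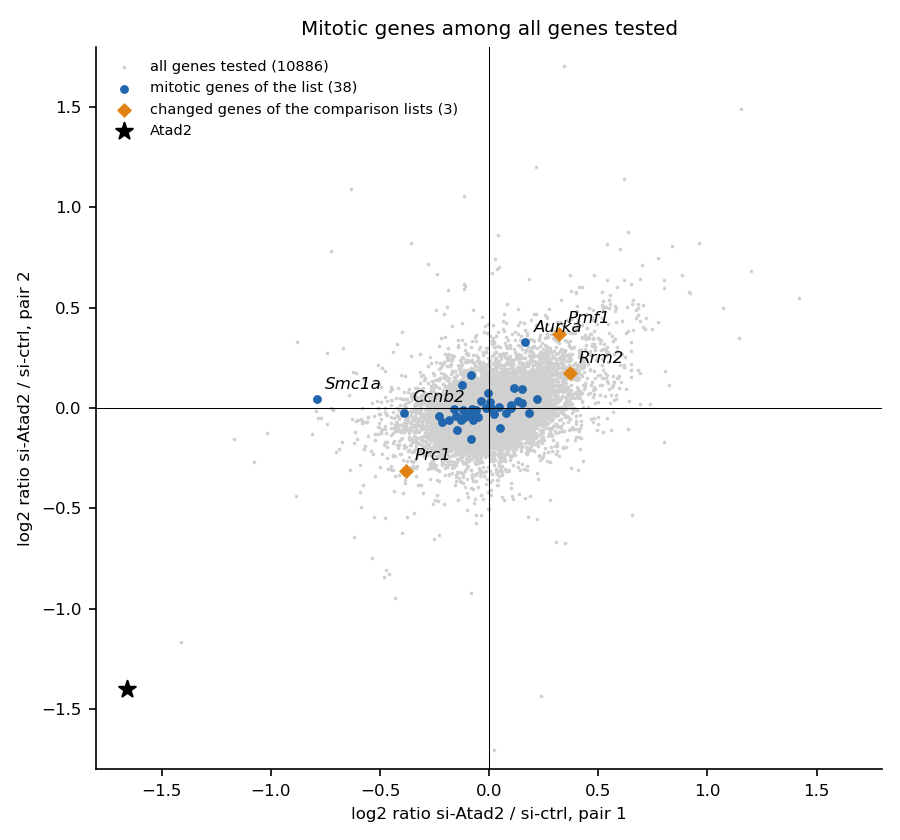
Log2 knockdown ratio (si-Atad2 over si-ctrl) with pair 1 on the x axis and pair 2 on the y axis for all 10886 genes tested (grey), the 38 mitotic genes (blue), the 3 changed genes of the comparison lists (orange) and Atad2 (star). Most of the 38 lie near the origin within the cloud of all genes, Smc1a far left at -0.79 and 0.05, and Atad2 at -1.66 and -1.40.

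GC content of the transcripts moved with the ratios of pair 1 and with the difference between the controls, and little with the ratios of pair 2. Across the 38 genes, whose GC content ranged from 34.8% to 56.1% (median 46.6%, beside 49.9% for all genes), the Spearman correlation of the log2 ratio with GC was -0.48 for pair 1 and -0.06 for pair 2, beside -0.28 and 0.08 over all genes. Between the control libraries themselves (si-ctrl 2 over si-ctrl 1) it was -0.86, beside -0.53 over all genes. These correlations describe genes that share the same libraries, and pair 1 and the control difference share si-ctrl 1. With the trend on GC removed across all genes, the median ratio of the 38 was -0.04 (all genes -0.02), 0 of 38 passed, and 22 of 38 (57.9%) were lower in both pairs, against 38.3% of all genes. The median absolute log2 difference over the 38 genes was 0.05 between the controls and 0.08 between the knockdown libraries, beside 0.11 and 0.04 for the knockdown ratios of pair 1 and pair 2. The median was thus larger in pair 1 than between replicates of either group, and smaller in pair 2. Over all genes tested it was 0.059 between the controls, 0.083 between the knockdown libraries, 0.105 in pair 1 and 0.075 in pair 2. Pair 1 therefore exceeded both replicate differences over all genes too. Differences between replicates cross separate normalizations, unlike the ratios within a pair.

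**Figure D4:**
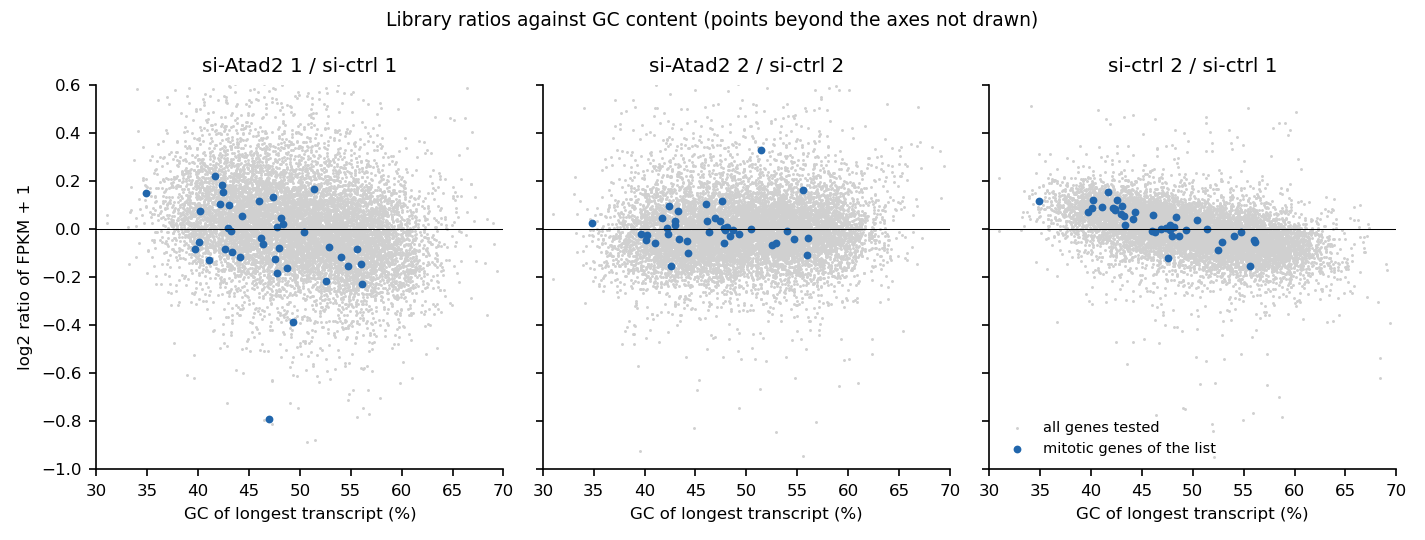
Log2 ratios of FPKM + 1 against GC content of the gene's longest transcript for pair 1, pair 2 and si-ctrl 2 over si-ctrl 1, with all genes tested in grey and the 38 mitotic genes in blue. The blue points slope downwards most steeply between the 2 control libraries, where the Spearman correlation is -0.86.

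Other genes of mitosis and of S phase, listed by function for comparison, had similar medians of the mean ratio but differed in pair 1. Pair 1 medians were 0.01 for other mitotic and 0.08 for replication genes, beside -0.06 for the 38. In pair 2 they were -0.01 and -0.02, beside -0.01. Lower in both pairs were 30 of 102 and 3 of 22, beside 18 of 38 and 34.1% of all genes. Of 102 other mitotic genes tested, 2 passed (1 higher, 1 lower) and 17 had an unadjusted p under 0.05, where 2.43% and 16.3% of all genes did, with a median log2 ratio of 0.00. Of 22 DNA replication genes, 1 passed, with a median of 0.01. Pmf1, a subunit of the Mis12 complex at the kinetochore (chr3:88394143-88410331), was at 36.8 and 36.4 FPKM in the controls and 46.2 and 47.4 FPKM after knockdown. It rose by 0.35 ± 0.06 on the log2 scale (adjusted p = 0.012). Prc1, the microtubule crosslinker of the central spindle (chr7:80294450-80316259), was at 23.4 and 24.2 FPKM in the controls and 17.7 and 19.3 FPKM after knockdown, and fell by 0.35 ± 0.07 on the log2 scale (adjusted p = 0.018). Its exons overlap those of Rccd1 and strand use is not stated, so its value is uncertain, and with rows named by greatest overlap its ratio was -0.18 (adjusted p = 0.16). Rrm2, the ribonucleotide reductase subunit that limits deoxynucleotide supply (chr12:24708241-24714146), was at 92.3 and 94.3 FPKM in the controls and 119.6 and 106.6 FPKM after knockdown, and rose by 0.27 ± 0.06 (adjusted p = 0.047). Rrm2 did not pass without the replicate block (adjusted p = 0.10), under median-of-ratios scaling (0.084) or without the variance trend (0.13), and without the libraries numbered 1 its ratio was 0.17. With the GC trend removed none of these 3 passed, with adjusted p of 0.060, 0.059 and 0.13.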

How the data were processed

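Gene FPKM of 2 si-ctrl and 2 si-Atad2 libraries (TruSeq RNA, 1 HiSeq1000 lane), grouped by the sample labels, were analysed. The authors deposited FPKM with 95% bounds for 59120 transcript rows from Cuffdiff runs that each compared 1 knockdown with 1 control library; there are no fragment counts, so no count model was used. The labels name TopHat, Cuffdiff and build mm9, the study's supplement Bowtie, and no versions are given in the sources used here. The loci were matched to GENCODE vM21 (GRCm38), where 39.6% of 26306 have both bounds within 3 bases of a transcript's. The authors' own comparisons (fold changes and p-values) were not used.

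Rows of at least 200 bases with status OK in all libraries were named by length within 3 bases of a GENCODE transcript. Rows without such a match were named by length within 5 bases of a transcript trimmed to the locus. That step was chosen after seeing which listed genes lacked a name. Remaining rows took the only coding gene with at least 50% of its body in the locus. Where no coding gene had that share, they took the only coding gene overlapping the locus. Named rows were summed per gene. Log2((si-Atad2 + 1)/(si-ctrl + 1)) was taken within each Cuffdiff run, which makes the replicate number a block. Genes with a mean of at least 1 FPKM were tested with limma 3.58.1 in R 4.3.3 (eBayes with trend, two-sided, Benjamini-Hochberg, threshold 0.05). The fit was also run on simulated data with independent noise in each library. Those data held no GC trend, outlying library or separate scaling of pairs, so they do not bear on these features. The pseudocount understates changes of low genes. The authors' 95% half-width over the main rows had a median of 2.71% of the level (1.09% to 8.82%), and squared differences between replicates were 2.65 (si-ctrl) and 4.07 (si-Atad2) times those the intervals give. Exons of 8 of the 38 genes (Plk1, Ccna2, Cdc20, Cdca8, Kif4, Ncapd2, Ncapg and Top2a) overlap another gene. Ccnb1, Ccnb2 and Kif4 have a pseudogene named after them. The values of all these genes are therefore uncertain, those given in Results included.

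The genes and lists were chosen with earlier results of these data known. Described in full are the 2 genes of each role group with the largest mean ratio of the same sign in both pairs, and genes of the other lists that passed; other genes with values were chosen after these were seen. Alternatives covered pseudocount, minimum level, row length, scaling, GC trend, variance trend, block, threshold, naming and each replicate left out.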

Additional observations from a re-analysis of the deposited data

How the results depend on the processing

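The count of 0 of 38 mitotic genes held under both pseudocounts, with a minimum of 5 FPKM, under median-of-ratios scaling and with the GC trend removed. It also held with no variance trend, no replicate block and the highest row of each gene only. With a stricter length match for naming, 0 of 34 passed (these last 2 alternatives chosen after seeing the data). With no minimum level or rows of all lengths, 0 of 38 passed too. In those settings few or no genes of any kind passed, so they could not test the count. The count was 1 of 38, Aurka higher, under TPM and with a threshold of 0.1, and 1 of 34, again Aurka, with rows named by greatest overlap. With 1 library left out and no block, where the lone library is assumed to vary like the others, it ranged from 0 to 3: Aurka higher without si-Atad2 replicate 1, and Smc1a, Ccnb2 and Espl1 lower without si-Atad2 replicate 2. In every setting where a listed gene was called, the share of listed genes called was below that of all genes, whose counts follow. The members' median ratio ranged from -0.058 without replicate 2 to -0.0083 without replicate 1, and from -0.05 to 0.01 with 1 library left out and no block. Under TPM, which shifts all genes of a library alike, 11 genes were lower in both pairs.

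The count of changed genes, 265, became 0 with no minimum level (adjusted p for Atad2 then 0.33 at a ratio of -1.53), 15 with rows of all lengths, 415 under TPM (349 higher and 66 lower), 171 under median-of-ratios, 70 with the GC trend removed (60 higher and 10 lower), 142 without the replicate block, 513 at a threshold of 0.1, 427 with rows named by greatest overlap, 123 with the highest row only, and with 1 library left out and no block 6 or 8 (either control), 765 (si-Atad2 1) and 2063 (si-Atad2 2). The numbers do not pair the samples in the data, since deviations of same-numbered libraries had a Pearson correlation of -0.005, and without the replicate block Rrm2 no longer passed. The other mitotic genes called, 2, were 0 with no minimum level, with rows of all lengths and with the GC trend removed, 5 under TPM and at a threshold of 0.1, 1 with the highest row only, and 0 without either si-ctrl library, 8 without si-Atad2 1 and 16 without si-Atad2 2. The replication genes called, 1, were 0 with no minimum level, with rows of all lengths, under median-of-ratios, with the GC trend removed, without the variance trend, without the replicate block and with the highest row only, and 0 to 4 with 1 library left out. The causes were not tested. With 2 libraries a group and no fragment counts, changes of the size of the replicate spread could not be resolved.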
